A study of Mus musculus with 12 samples.

Results

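Gene expression in the liver of wild-type mice was compared between ZT14, early in the dark phase, and ZT2, early in the light phase, where ZT counts hours from lights on. The members are the 6 wild-type (WT) libraries among the 12 of the series, 3 at ZT2 and 3 at ZT14, picked by genotype and time, and all genes were included. Of 48440 genes in the deposited tables, 15244 had enough reads to be tested. All mice were male C57BL/6, 8 weeks old, randomly fed a normal chow diet in cycles of 12 h light and 12 h dark, and no treatment was given. The other 6 libraries come from mice with liver-specific E4BP4 overexpression (TG) at the same times. They entered the filter on low reads, the scaling, the estimate of the spread between libraries and 1 test of genotype, and E4BP4 is the protein of the gene Nfil3. The promoter that drives the transgene, and whether each group holds 3 different animals, are not stated in the labels. The p-values therefore measure the spread among these samples alone, which may be technical.

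The liver clock is a loop in which the activators Bmal1 (gene Arntl) and Clock switch on the Per and Cry genes, whose proteins return to block them. Nr1d1 and Nr1d2 repress, and Rora activates, the gene Arntl through a shared DNA element, and the PAR bZIP factors Dbp, Tef and Hlf carry the rhythm to output genes through D-boxes, which E4BP4 also binds. Mice eat mostly in the dark phase, so a comparison across these times joins clock, feeding and temperature rhythms, which this design does not separate. Reads over introns come mostly from transcripts not yet spliced, which are short-lived, whereas exon reads come mostly from mature mRNA. A gene can therefore be read both ways in the same library.

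The WT libraries held 16035121 to 23105370 total gene reads, of which 81.15 to 81.91% mapped uniquely at ZT2 and 82.75 to 83.46% at ZT14, without overlap. The part of this share in the results was not tested. Reads over introns made up 7.97 to 9.68% of unique reads in genes with annotated exons, and these ranges overlapped between the times. The first principal component of the 2000 most variable genes (59.9% of variance) separated the times, and the second (15.6%) set ZT2 replicate 2 apart at 17.1, against -11.7 to 5.07 in the others. Libraries of the same group differed beyond counting noise, with 9.09 to 32.5 units of chi-square per degree of freedom. The tissue label was checked with 10 hepatocyte markers, whose summed level was 71262.7 to 76077.3 CPM (reads of a gene scaled to the library's total) at ZT2 and 69731.8 to 76721.6 CPM at ZT14. Summed markers of Kupffer cells (510 to 557 against 446 to 545 CPM), lymphocytes (15.6 to 20.9 against 15.1 to 20.3 CPM), stellate cells (259 to 338 against 294 to 325 CPM) and bile duct cells (57.9 to 117.6 against 70.6 to 77.8 CPM) overlapped between ZT2 and ZT14, as did those of endothelial cells (523 to 558 against 477 to 533 CPM). Erythroid markers were at 273 to 348 CPM at ZT2 and 239.8 to 269 CPM at ZT14, without overlap, and no erythroid gene passed the test with edgeR (0 at an unadjusted p under 0.05, and 0 with DESeq2 or limma-voom), while the fit to the 6 WT libraries alone called 2 of 5 lower, with or without a replicate block. A list of pancreas, adipose and muscle markers was at 27.5 to 33.1 CPM at ZT2 and 17.7 to 18.6 CPM at ZT14, almost all of it from Cela1 and Fabp4, while the pancreatic enzymes Prss1, Pnlip and Cpa1 were listed at 0 in all 6 WT libraries.

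Across the genome, 1398 of 15244 tested genes (9.17%) changed between the times at an adjusted p below 0.05, of which 739 (4.85%) were higher and 659 (4.32%) lower at ZT14. Levels are CPM of total gene reads, fold changes are log2 of ZT14 over ZT2, and the test was edgeR's quasi-likelihood F test with Benjamini-Hochberg adjustment over all 15244 genes. Most changes were modest. The median log2 fold change of the called genes was 0.65 for those higher and -0.63 for those lower, against 0.005 over all tested genes. At least a 2-fold change was seen in 212 genes higher and 162 lower, at least 4-fold in 53 and 33, and at least 8-fold in 14 and 9. Of the called genes, 1394 had no overlap between the ZT2 and ZT14 libraries, against 4470 of all 15244 tested. A lack of overlap in a called gene, as given below, therefore adds little to its call. Protein-coding genes made up 95.1% of the genes higher, 93.2% of those lower and 89.5% of those tested. Scaling by library size alone gave 1022 genes higher and 498 lower, in place of 739 and 659. The number of calls fell most without ZT14 replicate 1, to 770 (444 higher and 326 lower), and it was 880 without ZT14 replicate 3 and 924 without ZT2 replicate 1. In all 12 fits that each left out 1 library, 630 genes were called, 353 higher and 277 lower. In bulk liver, fewer cells of a type and less RNA per cell cannot be told apart.

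Among the 10 genes of the clock's repressor arm, 7 rose, 1 fell and 2 did not pass (median log2 fold change 1.32). Over the fits that left out a library, and over the other settings, 5 to 7 rose and 0 to 1 fell. Ciart, which blocks Clock and Bmal1, was nearly silent at ZT2. It was at 0.0941, 0.317 and 0.0517 CPM at ZT2 and 12.4, 6.49 and 9.52 CPM at ZT14 (log2 fold change 5.99, SE 0.39, adjusted p = 2.89e-06). Per3, a Period gene, was at 0.612, 1.77 and 1.29 CPM at ZT2 and 31.6, 50 and 35.5 CPM at ZT14 (log2 fold change 5.03, SE 0.31, adjusted p = 1.55e-06). Both genes were low in all ZT2 libraries and high in all ZT14 libraries, with no overlap. Per2, the Period protein that carries much of the negative feedback, was at 15, 16.8 and 26.9 CPM at ZT2 and 116, 111 and 107 CPM at ZT14 (log2 fold change 2.51, SE 0.21, adjusted p = 2.51e-05), with little spread among the ZT14 libraries. The Cry genes, whose proteins are the main repressors of Clock and Bmal1, rose by less. Cry1 was at 14.9, 18.6 and 16.7 CPM at ZT2 and 26.7, 33.6 and 32.6 CPM at ZT14 (log2 fold change 0.89, SE 0.17, adjusted p = 0.0055). Cry2 was at 18.2, 31.8 and 30.6 CPM at ZT2 and 47.5, 47.1 and 47.5 CPM at ZT14 (log2 fold change 0.82, SE 0.16, adjusted p = 0.00653). In both, the lowest ZT14 library stayed above the highest at ZT2.

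Other repressor-arm genes varied more among the ZT2 libraries. Per1, a Period gene that also responds to hormones and feeding, was at 3.9, 15.7 and 1.71 CPM at ZT2 and 39.5, 20.4 and 44.1 CPM at ZT14, and Bhlhe40 (Dec1), a repressor that competes for E-boxes, was at 37.4, 101 and 23.4 CPM at ZT2 and 186, 137 and 168 CPM at ZT14. ZT2 replicate 2 was the highest ZT2 library for both, yet stayed below each ZT14 library. Their log2 fold changes were 2.33 (SE 0.58) and 1.61 (SE 0.40), both with adjusted p = 0.0251. Neither call held without ZT14 replicate 1 (adjusted p = 0.078 for Per1 and 0.0855 for Bhlhe40), ZT14 replicate 3 (0.0793 and 0.0647), ZT2 replicate 1 (0.105 and 0.107) or ZT2 replicate 3 (0.0624 and 0.0549). Both were also lost in the fit to the 6 WT libraries alone (0.061 and 0.066), and in that fit with a replicate block (0.122 and 0.076). That of Per1 was lost with the block in 12 libraries too (0.053). Nr1d1 (REV-ERBα) was the repressor that fell. It was at 36.5, 82.9 and 94.7 CPM at ZT2 and 29.6, 33.9 and 17.4 CPM at ZT14 (log2 fold change -1.40, SE 0.35, adjusted p = 0.0235), and its call was lost without ZT14 replicate 1 (adjusted p = 0.0687), ZT14 replicate 3 (0.0905), ZT2 replicate 2 (0.0683) or ZT2 replicate 3 (0.0893). The call of Nr1d1 was also lost with a replicate block, in 12 libraries (0.052) and in the 6 WT libraries (0.105). Its relative Nr1d2 was at 41.3, 63.6 and 52 CPM at ZT2 and 55.4, 70.1 and 56.6 CPM at ZT14, overlapping between times (adjusted p = 0.435), and Bhlhe41 did not pass either (log2 fold change 1.03, adjusted p = 0.0923).

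In the activator arm, Npas2, Arntl and Clock fell. Npas2, a stand-in partner for Clock, was at 8.94, 7.47 and 7.71 CPM at ZT2 and 0.591, 0.299 and 0.558 CPM at ZT14 (log2 fold change -4.05, SE 0.25, adjusted p = 1.55e-06). Arntl, which encodes Bmal1, was at 32.8, 26.5 and 29.3 CPM at ZT2 and 8.91, 15.8 and 13.3 CPM at ZT14 (log2 fold change -1.22, SE 0.25, adjusted p = 0.00968), and Clock itself fell less, from 81, 76.9 and 67.4 to 48.4, 50.5 and 53.2 CPM (log2 fold change -0.57, SE 0.09, adjusted p = 0.00197). The groups were apart in these 3 genes, whereas Rora, a nuclear receptor that activates Arntl, overlapped at 76.1, 98.9 and 76.3 CPM at ZT2 and 71.6, 73 and 82.9 CPM at ZT14 (adjusted p = 0.548). Of 11 kinases, ligases and proteases that act on clock proteins, 1 was called (2 with DESeq2), the ubiquitin protease Usp2, at 1.46, 1.71 and 1.03 CPM at ZT2 and 40.3, 29.3 and 41.6 CPM at ZT14 (log2 fold change 4.73, SE 0.20, adjusted p = 8.43e-08). The median of these 11 was a log2 fold change of 0.04, near that of all genes. Csnk1d and Csnk1e, the casein kinases that mark Period proteins, had log2 fold changes of 0.04 and 0.21.

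All 3 PAR bZIP factors rose. Dbp was at 1.27, 11.7 and 6.93 CPM at ZT2 and 41.9, 34.9 and 24.4 CPM at ZT14 (log2 fold change 2.39, SE 0.47, adjusted p = 0.00698), Tef at 34.3, 77.7 and 56.5 CPM at ZT2 and 186, 193 and 178 CPM at ZT14 (log2 fold change 1.73, SE 0.21, adjusted p = 0.000403) and Hlf at 28.4, 42.4 and 35.5 CPM at ZT2 and 79.8, 67.4 and 75.5 CPM at ZT14 (log2 fold change 1.07, SE 0.16, adjusted p = 0.00121). The ZT14 libraries lay above those at ZT2 in each gene, and the ZT2 libraries of Dbp spread the most. Nfil3, the gene of the opposing D-box factor E4BP4, overlapped between times at 48.8, 29.4 and 37.6 CPM at ZT2 and 28.1, 40.4 and 24.6 CPM at ZT14 (log2 fold change -0.32, SE 0.21, adjusted p = 0.406). Ciart, Per3, Nr1d1, Bhlhe40, Bhlhe41, Cry2, Arntl, Clock, Npas2, Rora, Usp2, Csnk1d, Csnk1e, Dbp and Tef lie over another annotated gene in part, and without strand their reads cannot be told apart from the neighbour's, which makes these values uncertain.

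**Figure D1:**
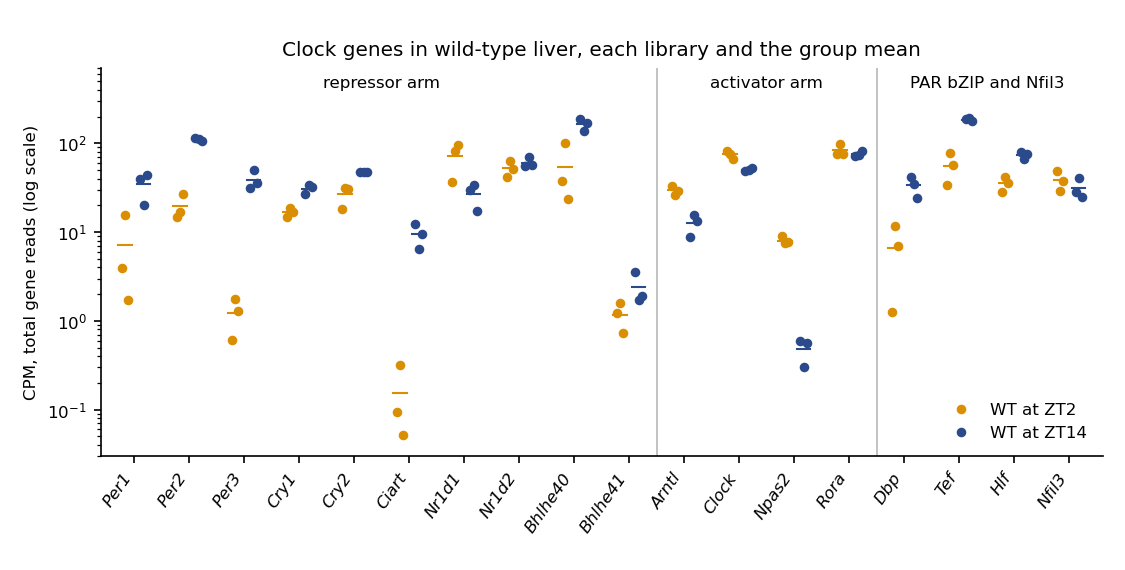
CPM of total gene reads (log axis) of the repressor arm, 4 genes of the activator arm and the PAR bZIP group with Nfil3 in each WT library; points are libraries, bars are means of 3. Ciart, Per3 and Per2 lie far higher at ZT14, and Npas2 far lower, while Nr1d2, Rora and Nfil3 overlap between the times.

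The promoters of 4 of these genes are shown because they hold the elements through which the loop is known to act. Each runs over the 250 bases before the RefSeq start (GRCm38.p6), read 5′ to 3′ on the gene's strand, with the motif in capitals. Ciart (chr3:95882229-95882478, minus strand) holds 3 copies of the E-box CACGTG, which begin 116, 58 and 44 bases before the start. Per3 (chr4:151044666-151044915, minus strand) holds the D-box TTATGTAA 205 and 158 bases before it. Per1 (chr11:69098699-69098948, plus strand) has an E-box at 166 bases, and Tef (chr15:81811164-81811413, plus strand) has an E-box at 138 bases.
Ciart: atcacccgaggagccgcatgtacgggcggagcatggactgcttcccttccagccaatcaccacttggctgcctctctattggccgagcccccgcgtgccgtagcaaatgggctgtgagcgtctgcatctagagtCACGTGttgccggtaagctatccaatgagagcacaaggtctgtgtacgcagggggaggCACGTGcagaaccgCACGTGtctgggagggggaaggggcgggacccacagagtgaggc
Per3: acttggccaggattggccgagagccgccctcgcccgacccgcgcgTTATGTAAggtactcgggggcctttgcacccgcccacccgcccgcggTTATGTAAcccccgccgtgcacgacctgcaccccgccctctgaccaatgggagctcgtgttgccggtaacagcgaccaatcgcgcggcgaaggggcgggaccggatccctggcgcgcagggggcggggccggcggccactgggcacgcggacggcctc
Per1: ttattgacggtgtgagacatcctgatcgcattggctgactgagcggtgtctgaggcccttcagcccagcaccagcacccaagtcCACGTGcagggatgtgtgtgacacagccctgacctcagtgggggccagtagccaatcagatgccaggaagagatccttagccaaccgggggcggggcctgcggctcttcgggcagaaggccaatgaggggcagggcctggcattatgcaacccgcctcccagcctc
Tef: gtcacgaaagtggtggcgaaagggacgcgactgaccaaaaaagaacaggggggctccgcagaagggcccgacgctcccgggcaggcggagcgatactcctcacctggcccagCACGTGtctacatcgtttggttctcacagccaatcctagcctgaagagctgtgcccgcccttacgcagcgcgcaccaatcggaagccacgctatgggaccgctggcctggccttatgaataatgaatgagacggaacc

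A search of the same windows, on both strands, covered 14083 promoters of 10994 tested genes, and none of the runs searched contains another. The E-box stood in 7.82% of all promoters, 9.80% of 755 promoters of genes higher at ZT14 and 8.48% of 660 of genes lower. The D-box (TTATGTAA or TTACGTAA) was rarer, in 0.703% of all promoters, 2.12% (16) of those of higher genes and 0.758% (5) of those of lower genes. A ROR element (TAGGTCA) stood in 1.80%, 1.99% and 2.73%, and a cyclic AMP element (TGACGTCA) in 2.42%, 1.85% and 2.27%. These shares are descriptions of letters, with no test, and say nothing of binding. Beside Per3, the higher genes with a D-box included Ankrd9 at 1.88, 2.47 and 2.07 CPM at ZT2 and 7.55, 6.96 and 5.53 CPM at ZT14 (log2 fold change 1.65 (SE 0.19)), the stress kinase Map2k6 at 4.99, 8.23 and 9.36 CPM at ZT2 and 19.3, 21 and 24.4 CPM at ZT14 (1.52 (SE 0.21)) and the mitochondrial adenylate kinase Ak4 at 46.4, 69.1 and 37 CPM at ZT2 and 121, 119 and 109 CPM at ZT14 (1.20 (SE 0.19)). In all 3 genes the groups were apart. The synaptic scaffold gene Homer2 (1.39) and Coq10b (1.30), which helps coenzyme Q function, also held a D-box, and both overlap other genes.

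Beyond the clock, the largest rises included genes of lipid synthesis and several regulators. Of the 15 named by size, 14 were called in all 12 fits that left out a library. Thrsp (Spot 14), which promotes fatty acid synthesis, was at 115, 102 and 43.4 CPM at ZT2 and 1417, 1843 and 1625 CPM at ZT14 (log2 fold change 4.23, SE 0.42, adjusted p = 8.48e-05). Tsku, a protein secreted by the liver, was at 26.1, 65.1 and 28.8 CPM at ZT2 and 385, 208 and 315 CPM at ZT14 (log2 fold change 2.92, SE 0.36, adjusted p = 0.000392). Wee1, a kinase that delays mitosis and a known clock target, was at 1.22, 1.33 and 1.24 CPM at ZT2 and 15.6, 16.4 and 12.8 CPM at ZT14 (log2 fold change 3.56, SE 0.29, adjusted p = 1.94e-05). In each, the lowest ZT14 library was above the highest ZT2 library, which the rule for naming genes by size required. Noct (nocturnin), a gene known for its rhythm in liver, was 7.98-fold higher, at 6.3, 16.2 and 3 CPM at ZT2 and 60.1, 42.2 and 97 CPM at ZT14 (SE of log2 0.54, adjusted p = 0.00434), with wide spread in both groups. Mfsd2a, a transporter of lysophospholipids, rose by 3.18 on the log2 scale (adjusted p = 0.0168), and its call was lost without ZT14 replicate 3 (adjusted p = 0.0583), ZT2 replicate 1 (0.0761) or ZT2 replicate 3 (0.0601). The others were Pnpla3, Fasn, Nat8f6, Dlec1, Ttll8 and Hcn3, and of these Dlec1, Ttll8 and Hcn3, at 2.75, 2.56 and 2.43, overlap other genes, as do Wee1, Noct, Pnpla3 and Nat8f6.

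The list of fatty acid synthesis had 13 of 21 members higher and 0 lower (median 0.76; 16 higher and 1 lower at an unadjusted p under 0.05, and 1 lower with DESeq2 and 0 with limma-voom). Fasn, the fatty acid synthase, was at 205, 384 and 203 CPM at ZT2 and 1986, 1496 and 1910 CPM at ZT14 (log2 fold change 2.77, SE 0.31, adjusted p = 0.00023). Pnpla3, a lipid droplet protein under control of SREBP-1c, was at 0.517, 0.886 and 0.414 CPM at ZT2 and 13.4, 13.9 and 12.1 CPM at ZT14 (log2 fold change 4.46, SE 0.48, adjusted p = 0.00016). Srebf1, which encodes SREBP-1, was at 161, 206 and 188 CPM at ZT2 and 849, 613 and 727 CPM at ZT14 (log2 fold change 1.98, SE 0.21, adjusted p = 0.000134). No library of 1 time reached the other time in these 3 genes. The pathway's supply steps rose by less: Acly, which makes cytosolic acetyl-CoA, was at 164, 244 and 161 CPM at ZT2 and 459, 555 and 537 CPM at ZT14 (log2 fold change 1.45 (SE 0.21)), and the acetyl-CoA carboxylases Acaca and Acacb were 1.10 (SE 0.13) and 1.42 (SE 0.31). Me1 and Pgd, sources of NADPH, were 1.54 and 0.61, and Mid1ip1, which activates the carboxylases, was 1.48. Scd1, the main desaturase of liver, did not pass in total reads, at 7217, 5460 and 2631 CPM at ZT2 and 7222, 7386 and 7684 CPM at ZT14 (log2 fold change 0.54, adjusted p = 0.265). Only ZT2 replicate 3 was well below the rest. Srebf1, Pnpla3, Acly, Acaca, Acacb, Me1 and Mid1ip1 overlap other genes, and their values carry that uncertainty.

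Triglyceride and lipid droplet genes had 6 of 18 tested members higher and 1 lower (median 0.49). Beside the counts of this and the other lists stand 4.85% higher and 4.32% lower of all tested genes. The count of 6 fell to 3 without ZT14 replicate 3 and to 2 without ZT2 replicate 1, and was 10 in the 6 WT libraries alone and 10 without the pair of TG libraries that stand apart from their groups (TG ZT2 replicate 2 and TG ZT14 replicate 3). Gpam, the first step of glycerolipid synthesis, was at 110.5, 138 and 129 CPM at ZT2 and 218, 235 and 257 CPM at ZT14 (log2 fold change 0.91, SE 0.13, adjusted p = 0.00123). Dgat2, the last step to triglyceride, was at 426, 451 and 460.3 CPM at ZT2 and 669, 639.8 and 696 CPM at ZT14 (log2 fold change 0.58, SE 0.09, adjusted p = 0.00154). Both were apart between the times, and both were called in all 12 fits that left out a library.

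Cholesterol genes had 6 of 26 members higher and 2 lower (median 0.33). The synthesis enzymes Lss and Pmvk rose, with log2 fold changes of 1.13 and 0.74. Insig2, which retains the SREBP complex in the endoplasmic reticulum (ER), moved the other way, at 264, 250.3 and 214 CPM at ZT2 and 64.4, 67.7 and 97.4 CPM at ZT14 (log2 fold change -1.67, SE 0.20, adjusted p = 0.00026). The count lower was 1 without each of ZT14 replicates 1, 2 and 3 and ZT2 replicates 2 and 3, and with no minimum of reads beyond 1 the count higher was 11. Insig2 and Lss overlap other genes.

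Bile acid genes split, with 3 of 16 higher and 2 lower (median -0.16). Cyp7a1, which sets the rate at which cholesterol becomes bile acid, was at 37.3, 15.2 and 38.1 CPM at ZT2 and 152, 193 and 125 CPM at ZT14 (log2 fold change 2.37, SE 0.38, adjusted p = 0.00189). Nr1h4, the bile acid receptor FXR, was at 106, 129 and 128 CPM at ZT2 and 202, 219 and 181 CPM at ZT14 (log2 fold change 0.73 (SE 0.15)). Hsd3b7, an early enzyme of the pathway, was at 498, 526 and 543 CPM at ZT2 and 209, 222 and 236 CPM at ZT14 (log2 fold change -1.23, SE 0.11, adjusted p = 4.48e-05), and Abcb11, the bile salt export pump, was at 674, 782 and 617 CPM at ZT2 and 266, 363 and 329 CPM at ZT14 (log2 fold change -1.11, SE 0.12, adjusted p = 0.000156). None of these 4 overlapped between times, though 2 rose and 2 fell. The fit to the 6 WT libraries alone, and that without the pair of TG libraries that stand apart, called 4 lower. Among 15 genes of heme and cytochrome P450 partners 3 rose, and Por, which passes electrons to all microsomal P450 enzymes, was at 164, 179 and 123 CPM at ZT2 and 483, 515 and 445 CPM at ZT14 (log2 fold change 1.63, SE 0.14, adjusted p = 2.2e-05). The other calls of that list, the receptors Nr1i2 and Nr1i3, were both lost without ZT14 replicate 1 or 3, ZT2 replicate 1 or 3, or TG ZT2 replicate 1. That of Nr1i2 was also lost without ZT14 replicate 2, TG ZT14 replicate 2 or TG ZT2 replicate 2 or 3, and that of Nr1i3 without ZT2 replicate 2 or TG ZT14 replicate 1, at an adjusted p of 0.0508 to 0.171 for Nr1i2 and 0.0546 to 0.181 for Nr1i3 over these fits. In the fit to the 6 WT libraries alone the call of Nr1i2 was lost too (adjusted p = 0.0794). Hsd3b7, Abcb11, Por and Nr1i3 overlap other genes.

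In glucose handling 6 of 20 genes rose and 0 fell with edgeR (median 0.45; 10 higher and 0 lower at an unadjusted p under 0.05; 0 lower with DESeq2 or limma-voom). Gys2, liver glycogen synthase, was at 83.2, 119 and 94.1 CPM at ZT2 and 259, 202 and 222 CPM at ZT14 (log2 fold change 1.20, SE 0.15, adjusted p = 0.000454), and Ppp1r3b, which directs a phosphatase to glycogen, was at 158, 284 and 98.2 CPM at ZT2 and 618, 432 and 621 CPM at ZT14 (log2 fold change 1.63, SE 0.33, adjusted p = 0.00883). The glycolytic enzyme Pklr (1.58) and Pfkfb1 (1.14), which sets the level of a glycolysis activator, also rose. These 4 were apart between times, and Pklr, Ppp1r3b and Pfkfb1 overlap another gene. Of 24 fatty acid oxidation and ketogenesis genes 23 were tested and 0 were called in either direction with edgeR, with 3 higher and 0 lower at an unadjusted p under 0.05, 2 higher with DESeq2 and 0 with limma-voom. Their median was -0.01.

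Amino acid breakdown had 4 of 24 genes higher and 2 lower (median 0.15). Over all tested genes 4.85% were higher and 4.32% lower, and the list counts of this paragraph were not tested against those shares. Asl, a urea cycle enzyme, was at 308, 353 and 264 CPM at ZT2 and 649.6, 680.3 and 650.0 CPM at ZT14 (log2 fold change 1.10, SE 0.16, adjusted p = 0.000927), and Gpt2, a mitochondrial alanine transaminase, was at 324, 329.9 and 285 CPM at ZT2 and 619, 598 and 612 CPM at ZT14 (log2 fold change 0.96, SE 0.11, adjusted p = 0.000218). Cbs, which commits homocysteine to cysteine synthesis, was at 556, 531 and 506 CPM at ZT2 and 235, 259.5 and 250.3 CPM at ZT14 (log2 fold change -1.10, SE 0.20, adjusted p = 0.00491). Bhmt, which recycles homocysteine to methionine, fell by 0.98 on the log2 scale (adjusted p = 0.0243), and that call was lost without ZT14 replicate 1 (adjusted p = 0.11), ZT14 replicate 2 (0.0842), ZT2 replicate 1 (0.0877) or ZT2 replicate 3 (0.0591). In NAD metabolism 3 of 18 genes rose and 1 fell. Nampt, the rate-limiting enzyme of NAD salvage and a known clock target, was at 34.4, 35.3 and 29.2 CPM at ZT2 and 115, 107 and 102 CPM at ZT14 (log2 fold change 1.71, SE 0.10, adjusted p = 1.55e-06). In autophagy 2 of 21 rose and 2 fell: the lysosome regulator Tfeb (0.67) and the mitophagy receptor Bnip3 (0.79) rose, and Gabarapl1 (-1.22) and Sqstm1 (-0.69), which bring cargo to autophagosomes, fell. Fits to the 6 WT libraries alone, with DESeq2, with a minimum of 1 CPM in 3 samples, or without TG ZT14 replicate 3 called 4 genes of the list lower. A separate list of insulin and fasting signals had 1 of 20 genes higher and 2 lower (median -0.07). Foxo3, a fasting transcription factor, rose by 0.65, and Sesn3, a sestrin, fell by 0.50. Trib3 also fell, and its call was lost with limma-voom (adjusted p = 0.0962) and in other fits. Bhmt, Nampt, Bnip3, Gabarapl1 and Sqstm1 overlap other genes.

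Heat shock and chaperone genes had 12 of 21 members higher and 0 lower with edgeR (median 0.76; 16 higher and 0 lower at an unadjusted p under 0.05; 14 higher with DESeq2 and 14 with limma-voom, 0 lower in both). Hspa1b, a stress-inducible Hsp70, was at 43, 49.1 and 13 CPM at ZT2 and 184, 157 and 134 CPM at ZT14 (log2 fold change 2.18, SE 0.42, adjusted p = 0.00621). Hsph1, an Hsp70 exchange factor, was at 80.3, 54.1 and 60.3 CPM at ZT2 and 135, 153 and 128 CPM at ZT14 (log2 fold change 1.09, SE 0.19, adjusted p = 0.00337). Hspa8, the constitutive Hsp70, was at 1194, 976 and 871 CPM at ZT2 and 1925, 1831 and 1900 CPM at ZT14 (log2 fold change 0.90, SE 0.13, adjusted p = 0.00138). In all 3 the groups were apart. The cochaperones Dnaja1, Bag3, Chordc1, Dnajb4 and Fkbp4 had log2 fold changes of 0.87, 1.27, 0.79, 0.70 and 0.58, and Hspa4l, a relative of Hsph1, 1.03. Calls of Hsp90aa1 (0.79), Dnajb1 (0.76) and Hspb1 (1.28) were lost without ZT14 replicate 1, 2 or 3 or ZT2 replicate 2 or 3, at an adjusted p of 0.0505 to 0.0698, 0.0576 to 0.119 and 0.0855 to 0.152. That of Hspb1 was also lost without TG ZT14 replicate 3 (0.0552) or TG ZT2 replicate 3 (0.0582). The count of 12 ranged from 9 to 14 over the fits that left out a library. Hsf1, the heat shock factor, did not pass (log2 fold change -0.04, adjusted p = 0.858). The heat shock element TTCNNGAA stood in 5 of 23 promoters of the list and in 6.23% of all promoters searched. Hspa8, Dnaja1 and Bag3 overlap other genes, and Hspa1b has a near-identical copy, Hspa1a, so its value is uncertain.

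No gene of the lists on protein folding in the ER, ribosomal proteins and respiration was called with edgeR, whereas ribosome biogenesis had calls. Over all tested genes 4.85% were higher and 4.32% lower. Of 23 ER folding genes 0 were called in either direction with edgeR (3 higher and 1 lower at an unadjusted p under 0.05; 2 and 1 with DESeq2; 0 with limma-voom), with a median of 0.02. Hspa5 (BiP), the main ER chaperone, was at 1120, 804 and 2029 CPM at ZT2 and 1738, 1046 and 1182 CPM at ZT14, and its highest library was ZT2 replicate 3. Of 26 ribosomal protein genes 0 were called (0 higher and 1 lower at an unadjusted p under 0.05; 0 with DESeq2 or limma-voom), with a median of 0.02. Of 25 genes of oxidative phosphorylation 0 were called (1 higher and 0 lower at an unadjusted p under 0.05; 0 with DESeq2 or limma-voom), with a median of 0.09. Ribosome biogenesis had 6 of 21 genes higher and 1 lower, but 2 higher without ZT14 replicate 1 and 3 without ZT14 replicate 3, ZT2 replicate 1 or ZT2 replicate 3. Rrp12 and Nolc1, which act in making ribosomal subunits, rose by 0.99 and 0.86.

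Acute-phase genes had 7 of 24 members lower and 0 higher with edgeR (median -0.61; 12 lower and 0 higher at an unadjusted p under 0.05; 9 lower with DESeq2 and 7 with limma-voom, 0 higher in both). The 3 fibrinogen chains fell together. Fga was at 6855, 4008 and 4788 CPM at ZT2 and 2172, 2171 and 2030 CPM at ZT14 (log2 fold change -1.30, SE 0.19, adjusted p = 0.00133), and Fgb and Fgg had log2 fold changes of -1.17 (SE 0.19) and -1.29 (SE 0.20). Stat3, which relays interleukin-6 to these genes, was at 216, 132 and 153 CPM at ZT2 and 83.6, 90.3 and 89.5 CPM at ZT14 (log2 fold change -0.93, SE 0.19, adjusted p = 0.00985), and Lbp, which binds bacterial lipopolysaccharide, was at 142, 97.4 and 99.3 CPM at ZT2 and 62.2, 50.2 and 53.4 CPM at ZT14 (log2 fold change -1.03, SE 0.21, adjusted p = 0.00957). ZT2 replicate 1 was the highest library for Fga, Stat3 and Lbp, and no library overlapped with the other time. Fgg and Stat3 overlap other genes. The count of 7 ranged from 5 to 9 over the fits that left out a library. Interferon-stimulated genes had 5 of 20 lower and 0 higher (10 lower at an unadjusted p under 0.05; 7 with DESeq2 and 5 with limma-voom), and 3 lower without ZT14 replicate 1, 2 or 3 or ZT2 replicate 1. Rsad2 (viperin) was at 12.8, 13.2 and 11.5 CPM at ZT2 and 2.87, 4.53 and 5.11 CPM at ZT14 (log2 fold change -1.58, SE 0.27, adjusted p = 0.0027), and Ifit1 was at 9.5, 7.15 and 7.86 CPM at ZT2 and 3.5, 2.99 and 3.48 CPM at ZT14 (log2 fold change -1.30, SE 0.21, adjusted p = 0.00182). Beside these lists, the summed neutrophil markers were at 3.94 to 9.27 CPM at ZT2 and 3.18 to 4.44 CPM at ZT14. Of 10 neutrophil markers 4 were tested and 2 fell, S100a8 at 0.753, 0.38 and 1.19 CPM at ZT2 and 0.0455, 0.0854 and 0.0429 CPM at ZT14 and S100a9 at 1.36, 0.38 and 1.45 CPM at ZT2 and 0.227, 0.0854 and 0.129 CPM at ZT14. With DESeq2 and in the fit to the 6 WT libraries 0 were called, and these 2 genes had no adjusted p there. The call of S100a8 was lost without ZT14 replicate 1, 2 or 3 or ZT2 replicate 3 (adjusted p = 0.0525 to 0.0825). That of S100a9 was lost without ZT14 replicate 1, 2 or 3 or ZT2 replicate 1 or 3 (0.105 to 0.144), with limma-voom (0.0862) and in other fits. Ly6g and Ngp were listed at 0 in 5 of 6 libraries. Of 12 Kupffer cell markers 0 were called by edgeR, DESeq2 or limma-voom and 0 had an unadjusted p under 0.05. The part of other cells in the fall of these lists was not tested.

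The largest falls outside the clock were of mixed function. Egr1, an immediate-early transcription factor, was at 50.9, 25.5 and 91.7 CPM at ZT2 and 4.27, 1.88 and 4.16 CPM at ZT14 (log2 fold change -4.03, SE 0.66, adjusted p = 0.00232). Elovl3, which elongates very long fatty acids and is higher in males, was at 573, 543 and 682 CPM at ZT2 and 34.1, 88.3 and 111 CPM at ZT14 (log2 fold change -2.94, SE 0.36, adjusted p = 0.000372), and Slc37a1, a relative of the glucose-6-phosphate transporter, was at 15.2, 6.27 and 11.4 CPM at ZT2 and 1.41, 1.11 and 1.72 CPM at ZT14 (log2 fold change -2.96, SE 0.42, adjusted p = 0.000869). Each was lower in all ZT14 libraries, which the rule for naming genes by size required. Crot, a peroxisomal carnitine transferase, was at 791 ± 25 CPM at ZT2 and 188 ± 17.8 CPM at ZT14 (SD, n = 3; log2 fold change -2.08, SE 0.10, adjusted p = 2.73e-07), and the ubiquitin ligase Rnf125 was at 123, 117 and 147 CPM at ZT2 and 20.7, 40.3 and 36.8 CPM at ZT14 (log2 fold change -1.99, SE 0.21, adjusted p = 0.000123). Hsd3b5, a male-biased steroid enzyme, was at 298, 219.9 and 351 CPM at ZT2 and 98.8, 92.6 and 86.2 CPM at ZT14 (log2 fold change -1.65, SE 0.32, adjusted p = 0.007). The fall of Moxd1 rested on few libraries, at 2.54, 0.38 and 42.9 CPM at ZT2 and 0.227, 0.0854 and 0.129 CPM at ZT14 (log2 fold change -6.66, adjusted p = 0.0342). Its call was lost without ZT2 replicate 3 (adjusted p = 0.223) or ZT14 replicates 1 (0.115), 2 (0.107) or 3 (0.116). The others by size were Spon2 (-2.46), Rfx4 (-2.46), Loxl4 (-2.35), Asap2 (-1.97), Ndrg1 (-1.94), Ifi47 (-1.92), Dhrs9 (-1.87) and Rab36 (-1.84), each called in all 12 fits that left out a library. Crot, Hsd3b5, Rfx4, Asap2, Ndrg1 and Ifi47 overlap other genes. In the antioxidant and xenobiotic list 3 of 30 rose, led by the coumarin hydroxylase Cyp2a5 at 185, 214 and 135 CPM at ZT2 and 1044, 886 and 896 CPM at ZT14 (log2 fold change 2.40, SE 0.21, adjusted p = 3.53e-05), and 2 fell, among them Gclc, the first enzyme of glutathione synthesis (-0.61 (SE 0.13)). Over all tested genes the shares were 4.85% higher and 4.32% lower.

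**Figure D2:**
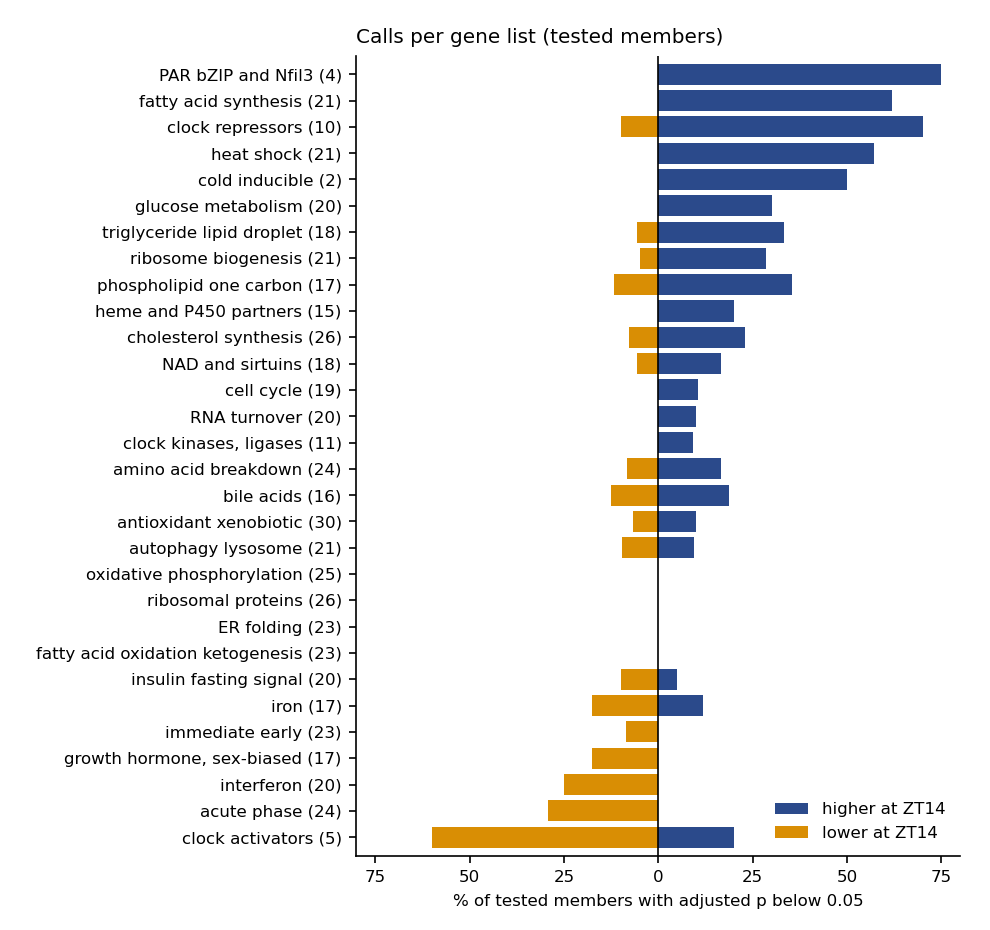
Share of tested members (x axis, %) of each of 30 gene lists that were higher (right) or lower (left) at ZT14 with adjusted p below 0.05; numbers in brackets are tested members. Of all tested genes, 4.85% were higher and 4.32% lower.

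To tell changes in transcription from those in later steps, as far as reads can, exon and intron reads were compared in the same libraries, over 10078 genes with enough unique reads of both kinds. Only 2 times were sampled, so a delay between intron and exon changes cannot be told apart from a change in a later step. CPM were computed within each table, so an exon level and an intron level of a gene are not on the same scale, while their changes with time are comparable. In exon reads 1407 genes (14%) were called, 701 higher (6.96%) and 706 lower (7.01%). In intron reads 185 (1.84%) were called, 119 higher (1.18%) and 66 lower (0.655%). With the exon table's scaling applied to introns too, the intron calls were 122 higher and 38 lower, and they were 75 in all without ZT14 replicate 1 and 260 without ZT2 replicate 2. A gene had a median of 47.8 unique intron reads per library, and the median standard error was 0.26 in introns against 0.13 in exons. Of the exon calls, 112 (7.96%) were also called the same way in introns, 74 higher and 38 lower, and 3 were called in opposite directions. Among 2590 genes with at least 100 intron reads on average, 60 of 513 exon calls (11.7%) were called the same way. The intron change had the sign of the exon change in 1183 of 1407 exon calls (84.1%), against 65.4% of all genes tested. Across genes, which are not independent replicates and share libraries, Pearson's r between exon and intron changes was 0.54 over all genes and 0.77 over exon calls. Exon calls that were higher had a median change of 0.60 in exons and 0.46 in introns, and those that were lower -0.55 and -0.31.

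Among genes that moved in both kinds of reads, Thrsp rose by 4.22 in exons and 4.67 in introns, where it was at 23.6, 85 and 20.1 CPM at ZT2 and 1120, 1090 and 1012 CPM at ZT14. Tsku rose by 2.91 and 2.91, and Srebf1 by 2.01 and 1.52. Gda, a guanine deaminase, rose by 1.41 and 1.91. Each of these 4 genes was called in introns in all 12 fits that left out a library. Genes that fell in both included Npas2, with intron reads at 33.3, 27.7 and 29.1 CPM at ZT2 and 4.27, 2.81 and 5.91 CPM at ZT14 (exon change -5.47, intron change -2.79), Slc37a1 (-2.85 and -3.23) and Rnf125 (-2.20 and -1.56). The groups were apart in the introns of Thrsp and Npas2. Srebf1 and Npas2 overlap other genes.

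The difference between the exon and the intron change was called in 80 genes (0.794%). It was below 0, the exon change being the lower, in 57 (0.566%) and above 0 in 23 (0.228%). Among the 80, 21 rose in introns and 9 fell in introns without an exon call, 16 fell and 10 rose in exons without an intron call, 8 were called in both and 16 in neither. The number was 22 without ZT14 replicate 1, 46 without ZT14 replicate 3 and 43 without ZT2 replicate 1, and 21 genes were called in all 12 fits that left out a library. It was 26 in the 6 WT libraries alone. Of the 80 genes 38 overlap no other gene.

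**Figure D3:**
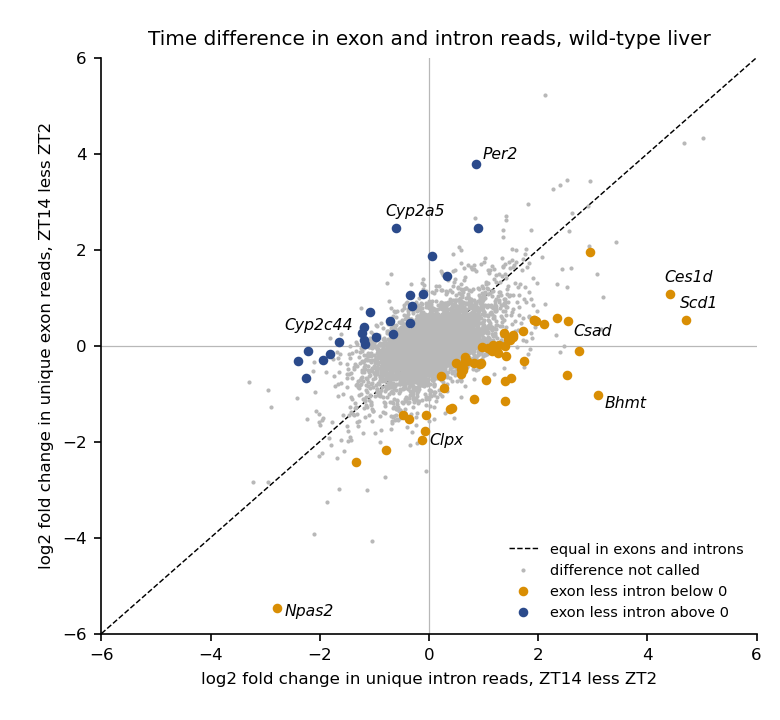
Log2 fold change of ZT14 over ZT2 in unique intron reads (x axis) and unique exon reads (y axis) for 10078 genes; the dashed line marks equal change. The 57 coloured genes below the line and 23 above it have a called difference, with Scd1 and Ces1d far to the right and Per2 above the line.

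In the following genes the intron change was above the exon change. Scd1 (chr19:44394451-44407709, minus strand, mm10), which makes monounsaturated fatty acids, had exon reads at 10312, 8001 and 3874 CPM at ZT2 and 10299, 10750 and 11112 CPM at ZT14. Its intron reads were at 38.2, 28.7 and 20.9 CPM at ZT2 and 1222, 662 and 397 CPM at ZT14, far apart between the times (log2 fold change 4.70, SE 0.42, adjusted p = 3.62e-05). The exon change less the intron change was -3.96 (SE 0.44, adjusted p = 0.000147). Ces1d (chr8:93166068-93197838, minus strand), a carboxylesterase that hydrolyses stored lipid, rose in both, with exons at 673, 721 and 387 CPM at ZT2 and 1178, 1305 and 1291 CPM at ZT14 and introns at 26, 109 and 90.2 CPM at ZT2 and 2110, 1149 and 1529 CPM at ZT14 (log2 difference -3.36, SE 0.50, adjusted p = 0.00207). Csad, of the taurine pathway, had exons at 507, 526 and 234 CPM at ZT2 and 620.0, 587 and 595 CPM at ZT14 and introns at 56.9, 145 and 42.5 CPM at ZT2 and 582, 365 and 467 CPM at ZT14 (log2 difference -2.10, SE 0.30, adjusted p = 0.00145). In Csad and Scd1, ZT2 replicate 3 had the lowest exon level, and the other ZT2 libraries were near those at ZT14. All 3 differences were called in all 12 fits that left out a library, as was that of another carboxylesterase gene, Ces1b (-1.47). S100a10, a member of the S100 protein family, had a difference of -2.13 (SE 0.30, adjusted p = 0.00141), also called in all 12 fits, though neither its exon nor its intron change was called. Aqp8, a water channel, had a difference of -3.05 (SE 0.57, adjusted p = 0.012), and its call was lost without ZT14 replicate 1 (adjusted p = 0.0502), ZT2 replicate 1 (0.0659) or ZT2 replicate 2 (0.0516).

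Some genes moved in opposite directions. Bhmt had exon reads at 2751, 2058 and 2487 CPM at ZT2 and 1047, 1077 and 1455 CPM at ZT14 and intron reads at 66.6, 158 and 95.4 CPM at ZT2 and 825, 436 and 1474 CPM at ZT14 (log2 difference -4.04, SE 0.49, adjusted p = 0.000388). Its exon groups and its intron groups were each apart, exons falling and introns rising. The exon call was lost without ZT14 replicate 1 (adjusted p = 0.0544) and the intron call without ZT14 replicate 1 (0.0526), ZT14 replicate 3 (0.0638), ZT2 replicate 1 (0.0914) or ZT2 replicate 3 (0.0732), while the difference was called in all 12 fits. Ethe1, which oxidizes sulfide in mitochondria, fell by 1.15 in exons and rose by 1.40 in introns (log2 difference -2.49, SE 0.31, adjusted p = 0.000388), and its intron call was lost without ZT14 replicate 1 (0.0736) or ZT2 replicate 1 (0.0585). That intron call was also lost in the 6 WT libraries alone (adjusted p = 0.0517). Bhmt and Ethe1 each overlap another gene.

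Other genes fell in exons with no intron call. Clpx, a subunit of a mitochondrial protease, had exon reads at 433, 384 and 361 CPM at ZT2 and 88.1, 102 and 110.1 CPM at ZT14 and intron reads at 250.2, 131 and 171 CPM at ZT2 and 137, 150.2 and 217 CPM at ZT14 (log2 difference -1.86, SE 0.25, adjusted p = 0.00101). Amt, of the glycine cleavage system, had exon reads at 58.9, 61.5 and 58.5 CPM at ZT2 and 20.4, 27 and 23.7 CPM at ZT14 and intron reads at 26, 24.8 and 23.1 CPM at ZT2 and 33.4, 21.9 and 42 CPM at ZT14 (log2 difference -1.71, SE 0.27, adjusted p = 0.00391). Exon reads were apart between times in both genes, and intron reads overlapped. Insig2 and Smagp had exon changes of -1.78 and -1.44 and intron changes of -0.06 and -0.05 (log2 differences -1.72 and -1.40). The differences of these 4 genes were called in all 12 fits that left out a library, and that of Crot (-1.46) in 11, all but that without ZT14 replicate 1 (adjusted p = 0.0531). Clpx, Insig2 and Crot overlap other genes. Unlike these genes, Cyp3a11, a major P450 enzyme, had no called exon change, though its difference of -3.07 was called. Its exons were at 6706, 7652 and 699 CPM at ZT2 and 4015, 5022 and 4976 CPM at ZT14, with ZT2 replicate 3 far below the other libraries. The exon value turned positive with limma-voom (0.49) and without ZT2 replicate 1 (0.16) or 2 (0.34). The call of the difference was lost without ZT14 replicate 1 (adjusted p = 0.11), ZT14 replicate 3 (0.0718) or ZT2 replicate 1 (0.0749).

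In the other direction, Per2 (chr1:91415982-91459324, minus strand) had exon reads at 6.63, 10.5 and 10.3 CPM at ZT2 and 132, 126 and 119 CPM at ZT14, and intron reads at 179, 146 and 287 CPM at ZT2 and 384, 345 and 391 CPM at ZT14. Exon reads rose, while intron reads were higher in each ZT14 library but did not pass (log2 fold change 0.87, SE 0.26, adjusted p = 0.11), and the exon change was the larger (log2 difference 2.89, SE 0.25, adjusted p = 4.45e-06). Its log2 fold change was 2.51 in total reads and 3.79 in exon reads alone. Without strand, intron reads of Per2 cannot be told apart from those of any unannotated transcript on the opposite strand, which was not tested. Cyp2a5 (chr7:26835305-26843548, plus strand) had exon reads at 245, 277 and 179.7 CPM at ZT2 and 1403, 1214 and 1215 CPM at ZT14 and intron reads at 32.5, 175 and 56.6 CPM at ZT2 and 86.1, 45 and 41.4 CPM at ZT14 (log2 difference 2.88, SE 0.46, adjusted p = 0.00391). Exons were apart and introns overlapped, with ZT2 replicate 2 the highest in introns. Cyp2c44, an arachidonic acid epoxygenase, had exon reads at 439, 545 and 445 CPM at ZT2 and 529, 496 and 489.7 CPM at ZT14 and intron reads at 353, 477 and 741 CPM at ZT2 and 186, 155 and 159.6 CPM at ZT14. Its introns fell while its exons overlapped (log2 difference 1.68, SE 0.28, adjusted p = 0.00585). Hsd17b6, a steroid dehydrogenase, had a difference of 2.02, and these 4 were called in all 12 fits that left out a library. Fkbp5, a cochaperone induced by glucocorticoids, rose in exons from 24.8, 26.7 and 21.3 to 102, 86.7 and 76.3 CPM with introns at 91.8, 43 and 73 CPM at ZT2 and 55.5, 66.4 and 95.2 CPM at ZT14 (log2 difference 1.80, SE 0.33, adjusted p = 0.00951), and its call was lost without ZT14 replicate 1 (adjusted p = 0.0717) or ZT2 replicate 1 (0.0738). Dbp also had a larger exon change (1.55), lost without ZT14 replicate 1 (adjusted p = 0.0666), ZT14 replicate 3 (0.0549), ZT2 replicate 2 (0.0593) or ZT2 replicate 3 (0.0984). Cyp2a5 belongs to a family of near-identical genes, and so do Ces1d, Ces1b and Cyp3a11, and reads could be split among the members of such a family. Fkbp5 and Dbp overlap another gene.

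**Figure D4:**
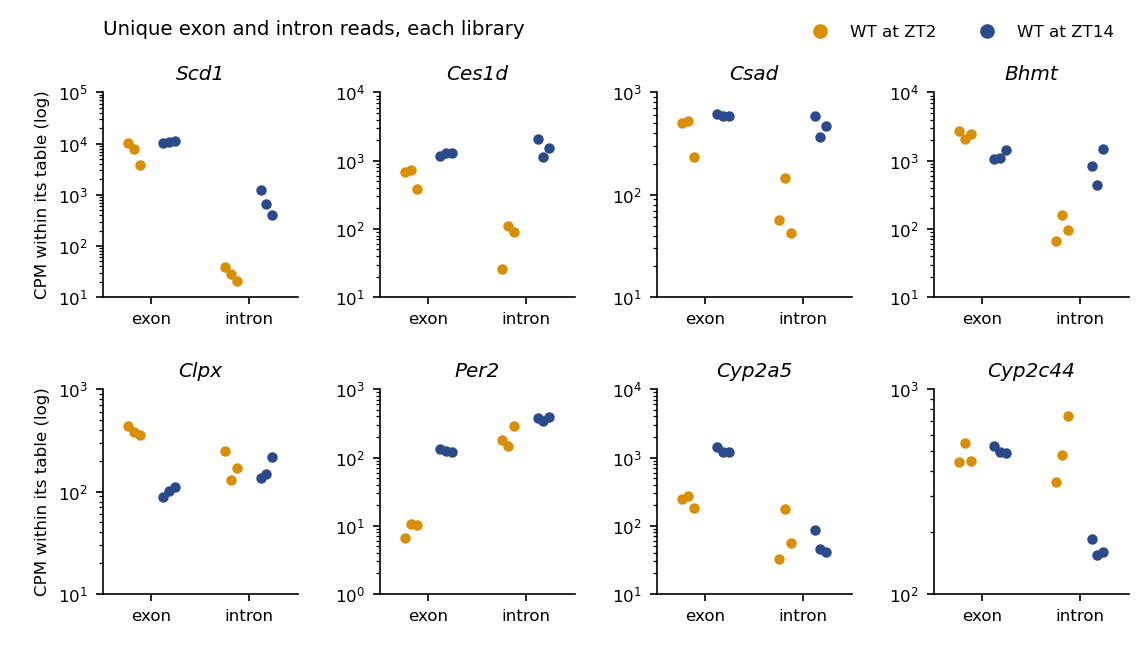
CPM of unique exon and unique intron reads (log axes, each scaled within its own table) of 8 genes; each point is a WT library. Introns of Scd1, Ces1d, Csad and Bhmt rise at ZT14, exons of Clpx fall with overlapping introns, exons of Per2 and Cyp2a5 rise more than their introns, and introns of Cyp2c44 fall with overlapping exons.

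Exon and intron changes of 6 gene lists are given side by side, with no test between lists. Over all genes of this comparison, 6.96% were called higher and 7.01% lower in exons, and 1.18% and 0.655% in introns. Fatty acid synthesis rose in both, with 12 of 18 genes higher in exons and 8 in introns, and medians of 1.01 and 1.29; under the settings other than leaving out a library the exon median was 0.56 to 1.19. Cholesterol genes had 7 of 25 higher and 2 lower in exons and 4 higher in introns (medians 0.28 and 0.50). Without ZT2 replicate 1 these medians were 0.19 and 0.36, and without ZT2 replicate 3 they were 0.45 and 0.81. ZT2 replicate 1 was the lowest library in 18 of 25 genes in exons and in 12 in introns. Heat shock genes had 12 of 18 higher in exons (median 0.67) but 1 in introns, Hspa4l, whose introns rose by 1.86 (adjusted p = 0.0172). Their intron median was -0.11, with 7 of 18 above 0, and it ranged from -0.41 without ZT2 replicate 3 to 0.16 without ZT2 replicate 2, and up to 0.09 under the other settings, so its sign was not stable. The exon change was larger than the intron change by a median of 0.59 on the log2 scale, which was 0.34 without ZT14 replicate 1 and 0.79 without ZT14 replicate 3. In this list 0 differences were called with edgeR or limma-voom, and 6 had an unadjusted p under 0.05. Hsph1 had intron reads at 99.1, 76.4 and 5.22 CPM at ZT2 and 39.8, 54.6 and 76.8 CPM at ZT14, with ZT2 replicate 3 far below the others.

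For ER folding genes the exon median was -0.006, with 10 of 23 above 0 and 2 called higher (Dnajb9 and Ddit3), and the intron median was 0.98, with 22 of 23 above 0. None of the 23 was called in introns with edgeR or limma-voom, and 11 were higher at an unadjusted p under 0.05. The difference was below 0 in 21 of 23 (median -0.86), with 0 called by edgeR or limma-voom and 12 at an unadjusted p under 0.05. The median difference was -0.46 without ZT2 replicate 3 and -1.12 without ZT14 replicate 3. Hspa5 had exon reads at 1607, 1184 and 3007 CPM at ZT2 and 2514, 1538 and 1725 CPM at ZT14 and intron reads at 49.6, 27.7 and 14.9 CPM at ZT2 and 88.9, 40.5 and 28.9 CPM at ZT14, and Pdia4, a disulfide isomerase, had intron reads at 95.1, 55.4 and 61.1 CPM at ZT2 and 219, 128 and 74.8 CPM at ZT14. ZT14 replicate 1 held the highest intron level in 20 of 23 genes, and ZT2 replicate 3 the highest exon level in 17 and the lowest intron level in 16. The intron median was 0.47 without ZT14 replicate 1, and the exon median was 0.32 without ZT2 replicate 3. Under the settings other than leaving out a library the intron median was 0.75 to 1.05. The acute-phase list had medians below 0 in both kinds of reads (-0.58 in exons and -0.42 in introns, the latter -0.24 without ZT2 replicate 3), with 8 of 19 called lower in exons and 0 in introns with edgeR (2 higher and 2 lower at an unadjusted p under 0.05; 0 with limma-voom). Ribosomal protein genes had medians of -0.006 and 0.05. Ddit3 and Pdia4 overlap other genes.

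**Figure D5:**
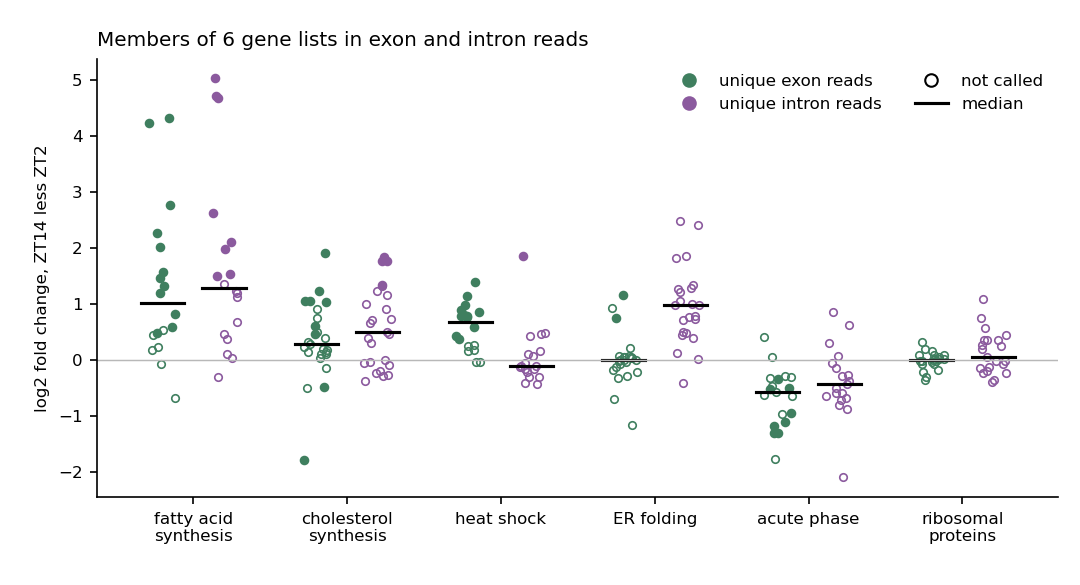
Log2 fold change of ZT14 over ZT2 (y axis) of each member of 6 gene lists in unique exon and unique intron reads; filled points were called and bars are medians. Heat shock genes sit above 0 in exons (median 0.67) and around 0 in introns (-0.11), and ER folding genes around 0 in exons (-0.006) and above it in introns (0.98).

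The time difference was also set against that in the TG mice, by a test of the difference itself. It differed in 1 gene, Ppard, a nuclear receptor for fatty acids, at adjusted p = 0.0109. This test was fitted in the main setting alone. Whether the call holds when a library is left out, or with other tools or kinds of reads, was not tested. Of 15244 tested genes, 912 had an unadjusted p under 0.05, and a share of about 0.05 would pass that threshold if no gene differed. Ppard was at 18.8, 16.6 and 16.6 CPM at ZT2 and 18.1, 22.1 and 20.4 CPM at ZT14 in WT, with overlap and no call (log2 fold change 0.22, SE 0.11, adjusted p = 0.278), and the time change in TG was lower by 1.46 on the log2 scale. With total exon reads the WT log2 fold change of Ppard was -0.043.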

How the data were processed

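RNA-seq was read from deposited gene tables, 1 per library, whose unit is read counts. Per the file headers, the authors counted reads over whole genes, exons and introns, as total and as uniquely mapped reads. Per the submitters' processing notes, the builds were mm10 and GRCm38. For the aligner, counter and strand setting nothing is stated in the labels or headers, and the kit does not mark strand. Depth was 16035121 to 23105370 total gene reads per WT library, and the median standard error was 0.13 in exon and 0.26 in intron reads.

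Total gene reads were fitted with edgeR 4.0.16 (quasi-likelihood test, TMM scaling, filterByExpr with 10 reads) over all 12 libraries and 4 groups, so that TG libraries share the filter and the estimate of spread. The contrast was WT at ZT14 less WT at ZT2, with Benjamini-Hochberg adjustment and a threshold of 0.05. Unique exon and unique intron reads were fitted the same way over genes passing the filter in both tables. The exon less intron difference came from a joint edgeR model with each library as a block. Of the genes, 16915 have no annotated exon and so could not enter the exon and intron comparison. Fits were tested on simulated counts. Overlap with another gene was read from the deposited coordinates.

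Alternatives used limma 3.58.1 (voom), DESeq2 1.42.0, other scalings, filters and kinds of reads, a replicate block, and leaving out each library. The members and gene lists were chosen with earlier results of these data known. Genes named were all clock and PAR bZIP genes, up to 15 rises and 15 falls by size among calls whose libraries did not overlap with at least 5 CPM in the higher group, the 4 smallest p of each list, and up to 10 differences each way and 8 genes called in both kinds of reads each way, with no overlap with another gene and at least 30 intron reads. Genes named beyond this rule were chosen after their values were seen, and not all genes it names are described: the results of some are not reported here. Samples of equal replicate number did not deviate together, with correlations of -0.05, -0.16 and -0.06. So few libraries cannot exclude that equal numbers were handled together. Promoter sequences are RefSeq's on GRCm38.p6, for 10994 of 15244 tested genes. Tables were made with R 4.3.3, Python 3.11.15 and pandas 2.3.3.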

Additional observations from a re-analysis of the deposited data

Results flagged for a closer look

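The time difference was not alike in both genotypes for 1 gene, by a test of the difference itself. For Ppard the time change in TG less that in WT was -1.46 on the log2 scale (adjusted p = 0.0109, edgeR's quasi-likelihood test with Benjamini-Hochberg adjustment). This test was fitted in the main setting alone, so how far the call depends on single libraries or on the processing was not tested.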

How the results depend on the processing

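A replicate block was fitted because both times share replicate numbers, although equal numbers did not deviate together and none of the 3 ZT2 libraries correlated best with the ZT14 library of its own number. With the block, 857 genes were called in the 6 WT libraries (460 higher, 397 lower) and 1370 in all 12 libraries, against 1398. Without a block, the 6 WT libraries gave 1321, DESeq2 1705, voom 1371 and the other scalings, filters, kinds of reads and choices of TG libraries 1386 to 1588. At an adjusted p below 0.01, 606 were past the threshold (337 higher, 269 lower), and with a log2 fold change of at least 1, 374 (212 and 162). In exon reads, genes that overlap no other gave 727 (365 and 362), with fewer genes tested, and the stricter p gave 674 (345 and 329). In intron reads the 6 WT libraries gave 90 (58 and 32), genes without overlap 67 (47 and 20) and the stricter p 57 (37 and 20), and exon scaling left 38 lower. The exon less intron difference was called in 26 genes with the 6 WT libraries (10 and 16), 34 without overlap (10 and 24), 47 with no library block (31 lower) and 29 at the stricter p (8 and 21). For the other settings the cause was not tested.

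Leaving out a library gave 770 to 1511 genes called in all reads (444 to 813 higher, 326 to 698 lower), 791 to 1479 in exon reads (430 to 748, 361 to 739), 75 to 260 in intron reads (48 to 161, 27 to 99) and 22 to 103 for the difference (6 to 32, 16 to 71). The lowest of each of these counts came without WT ZT14 replicate 1. Of 379 values of named genes, 251 were called and 170 of these held in every setting, and 0 called values changed sign. Of the values not called, Ankrd12 (1.07) and Fam120b (0.52) changed sign with total exon reads and were called there, at an adjusted p of 0.00365 and 0.00222. Ppard (-0.043) and Cyp2c44 (0.086) changed sign with total exon reads, Cyp2c44 also by library size alone (0.045) and without a filter (0.0019). Cyp3a11 changed sign with the block (0.087 in 12 libraries, 0.40 in 6; 0.041 in exon reads of 12) and with voom (0.53; 0.49 in exon reads). Log2 values that crossed 0 when a library was left out ranged, in all reads, Btrc -0.15 to 0.018, Cd3g -0.095 to 0.94, Csf3r -0.37 to 0.035, Csnk1d -0.014 to 0.11, Csnk2b -0.020 to 0.096, Cyp2c44 -0.086 to 0.076, Cyp3a11 -0.58 to 0.36, Hsd17b6 -0.61 to 0.24, Mmp9 -0.75 to 0.36 and Spp1 -0.54 to 0.46; in exon reads, Cyp3a11 -0.62 to 0.34 and Hsd17b6 -0.55 to 0.30; in intron reads, Clpx -0.36 to 0.15, Cyp2a5 -1.01 to 0.35, Fkbp5 -0.20 to 0.30 and Insig2 -0.39 to 0.24; in the exon less intron difference, Dhrs9 -0.57 to 0.12, Fasn -0.14 to 0.54, Fzd6 -0.097 to 0.52, Slc37a1 -0.19 to 1.03 and Tsku -0.52 to 0.013. Intron reads were few, with a median of 47.8 per gene and library.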
